A study of Drosophila melanogaster with 34 samples.

Results

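Most binding sites of the zinc finger protein Crooked legs (Crol) in larval brains and imaginal discs lie within a few kilobases of another one, and the peaks described here are the exceptions. An isolated peak was defined as a Crol peak of wild-type (WT) brains and discs, on the arms X, 2L, 2R, 3L, 3R or 4, whose midpoint was more than 20000 bp from the midpoint of every other peak of the same list on that arm. This held for 399 of 10139 peaks, or 3.94%, and the remaining 9740 are called the other WT Crol peaks. The 5 lists analysed here together held 47852 peaks on these arms. The members were chosen by the positions of peaks in the WT Crol list alone, so position, width and strength in that list are given as descriptions, while presence in the other lists was not part of the rule.

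Crol was mapped in WT larvae, in larvae labelled crol-KO and in S2 cells, which are grown in culture and come from embryos, and Combgap (Cg) was mapped in larvae of both genotypes. The larvae were of the third instar, and brains and imaginal discs, the epithelial sacs that form adult structures, were not separated, so every list from larvae mixes many cell types. The crol-KO allele is a CRISPR/Cas9 deletion with a DsRed marker in its place. On the study's Western blot Crol protein was decreased in crol-KO but still seen, so crol-KO does not stand for a complete absence of Crol. All 3 Crol lists were made with the antibody CrolN, raised against the N-terminal part of the protein. The S2 samples are labelled as wild-type S2 cells in their titles but carry brains and discs as tissue, and the titles were followed. Each list was called on the pooled reads of 2 replicates, which leaves 1 list per group and no replicate error, so no p-value is given for any difference between lists. Shares have exact Clopper-Pearson 95% intervals and differences between isolated and other peaks have Newcombe 95% intervals. Both cover counting error only and treat neighbouring peaks as independent.

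Polycomb group proteins keep developmental genes silent and in Drosophila are brought to DNA at Polycomb response elements, which are occupied by sets of sequence-specific proteins. Cg is one of the proteins that bind such elements and is tied to Polycomb repressive complex 1. Crol carries an array of C2H2 zinc fingers and binds poly(G)-rich DNA. Both proteins also bind many places outside repressed domains. The lists do not say which of the peaks are response elements, and peaks were not assigned to genes here because no dm3 annotation was used.

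The lists rested on 3.42 to 5.77 M reads, as worked out from the values of the peaks, with 4.24 M for Crol in WT and 4.89 M for Crol in crol-KO. Under the same rule the isolated peaks numbered 404 (4.09%) for crol-KO Crol, 450 (5.03%) for WT Cg, 426 (4.58%) for crol-KO Cg and 372 (3.88%) for S2 Crol. Between 332 and 357 peak numbers were skipped per list, 332 of them in the WT Crol list. Of the isolated peaks, 24 lay next to a skipped number, so that a neighbour not analysed here could be close to them, and 375 did not.

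Isolated peaks stood far from any other Crol site. The median distance to the nearest midpoint was 27978.5 bp, with quartiles of 22661 and 37020 bp, against 2671 bp for the other WT Crol peaks. Between 20000 and 30000 bp lay 224 of them, and 175 were farther away, 47 beyond 50000 bp and 4 beyond 100000 bp. The stretch from the neighbour on one side to the neighbour on the other had a median of 79878.5 bp (n = 393), against 14155 bp. For 114 isolated peaks the nearest neighbour was itself isolated, and 6 were the first or last peak of their arm.

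The threshold of 20000 bp cuts through a continuous range. Just inside it were peaks at 2R:10219359-10220110 (20007 bp to the nearest midpoint), 2R:8499502-8500261 (20022 bp) and 2L:12192742-12193106 (20030.5 bp). Just outside it were X:10771577-10772044 (19985.5 bp), 2L:20529735-20530041 (19896 bp) and 3R:5432874-5433206 (19862 bp). Inside, the first 2 overlapped peaks of all 4 other lists and the third of none. Outside, the first overlapped all 4 and the others none. Coordinates are 1-based positions in dm3.

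The isolated peaks were narrower than the rest of the list but about as strongly enriched. Their median width was 472 bp (quartiles 381 and 584, highest 1928), against 526 bp (408 and 737, highest 4112). Peaks wider than 1000 bp made up 5.26% of isolated peaks (21) and 13.1% of the others (1277), and peaks wider than 600 bp made up 23.6% (94) and 38.3% (3733). The narrowest width in the list, 300 bp, which equals the extension of reads during peak calling, was reached by 20 isolated peaks. The authors' fold enrichment, the ratio of pileup to local background at the summit, had a median of 3.42 for isolated peaks (1.89 to 9.46) and 3.39 for the others (1.64 to 18.2). The pileup behind it was lower, with a median of 52 reads against 62, and so was the local background, with 14.4 reads against 18.2. The summit of an isolated peak lay near its middle, with quartiles of 43.4% and 57.6% of the width.

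The first comparison asked whether isolated Crol sites were lost in crol-KO more often than others. A higher loss was not seen at an overlap of 1 bp or of 50%. Of the 399, 332 or 83.2% (79.2 to 86.7) shared 1 bp or more with a peak of crol-KO Crol, where the share over the whole WT list was 81.4%. The share among the other WT Crol peaks was 81.3% (80.5 to 82.1), and the difference of 1.91 percentage points had an interval from -2.14 to 5.35. With an overlap of 50% of both peaks it was 7.51 points (3.20 to 11.3), an interval above 0, so this call depends on the overlap required. The 67 isolated peaks without a crol-KO overlap were 16.8% (13.3 to 20.8), next to 18.6% of the whole list. Within 1000 bp, 65 had no crol-KO peak (16.3%), next to 14.0%, but that window can take in the peak of a close WT Crol neighbour, which isolated peaks lack by the rule. At the same peak width the isolated peaks had the higher share, by 5.33 points (1.86 to 8.81), an alternative added after the data were seen. At the same fold enrichment the difference was 0.999 points (-2.42 to 4.42).

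Retention followed the strength of the peak. The isolated peaks were ordered by WT fold enrichment and divided into 4 classes of about equal size. The weakest class (up to 2.76) was found again in crol-KO in 62% of cases (51.7 to 71.5). The second class reached 79% (69.7 to 86.5), the third 95% (88.7 to 98.4) and the strongest (from 4.60) 97.0% (91.4 to 99.4). The other WT Crol peaks within the same bounds stood at 64.2%, 78.1%, 89.1% and 96.1%. The 67 absent peaks had a median fold enrichment of 2.68 and a median width of 365 bp, against 3.71 and 494.5 bp for the 332 kept ones.

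Around an absent isolated peak the crol-KO Crol list was usually empty, which the rule favours because members have no WT Crol neighbour within 20000 bp. For 52 of the 67, no crol-KO Crol midpoint lay within 20000 bp. For 13 the nearest was more than 1000 bp away, and for 2 it was closer. Over all 399 isolated peaks, 274 (68.7%) had no crol-KO Crol midpoint within 20000 bp apart from overlapping peaks. For the 67 absent peaks the median distance to the nearest crol-KO midpoint was 27452.5 bp, about the spacing that isolated peaks have in WT. The strongest isolated peak with no crol-KO peak within 1000 bp lay at 2L:3933528-3934081 and had 99 reads and a fold enrichment of 5.97 in WT. It overlapped a weak WT Cg peak of fold enrichment 2.68, and no peak of the crol-KO Cg or S2 lists. The next, at 3R:3915984-3916450, had 61 reads and a fold enrichment of 5.34, overlapped an S2 peak of fold enrichment 6.88 and no Cg peak, and lay next to a skipped peak number. The third, at 3R:21380778-21382023, was wide, with 1246 bp, and had 125 reads and a fold enrichment of 5.27 in WT. It shared only a WT Cg peak of 2.72. All 3 were thus called in 1 further list each, not the same one in each case.

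Where the peak was kept, the scaled Crol pileup in crol-KO was at the median close to that in WT. Summit pileups were scaled to the reads of each list and compared at the 332 kept isolated peaks. The median was 13.4 reads per M reads in WT and 15.3 in crol-KO, and the median log2 ratio of crol-KO over WT was 0.17, with quartiles of -0.07 and 0.42 and a range from -1.74 to 1.39. The ratio was below 0 at 100 peaks (30.1%), where the other kept WT Crol peaks had a median of 0.12 with 38.8% below 0. A ratio below -1, at which the crol-KO pileup is at most 50% of the WT one, was found at 9 isolated peaks, or 2.71% (1.25 to 5.08), and at 3.37% (2.99 to 3.80) of the others. In the strongest class such drops were found at 6 of 96 isolated peaks, or 6.25% (2.33 to 13.1), and at 225 of 2252 others, or 9.99% (8.78 to 11.3), and the intervals overlapped. The ratio exists only where both lists have a peak, and it is centred by the recovered read numbers, not by a spike-in.

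**Figure D1:**
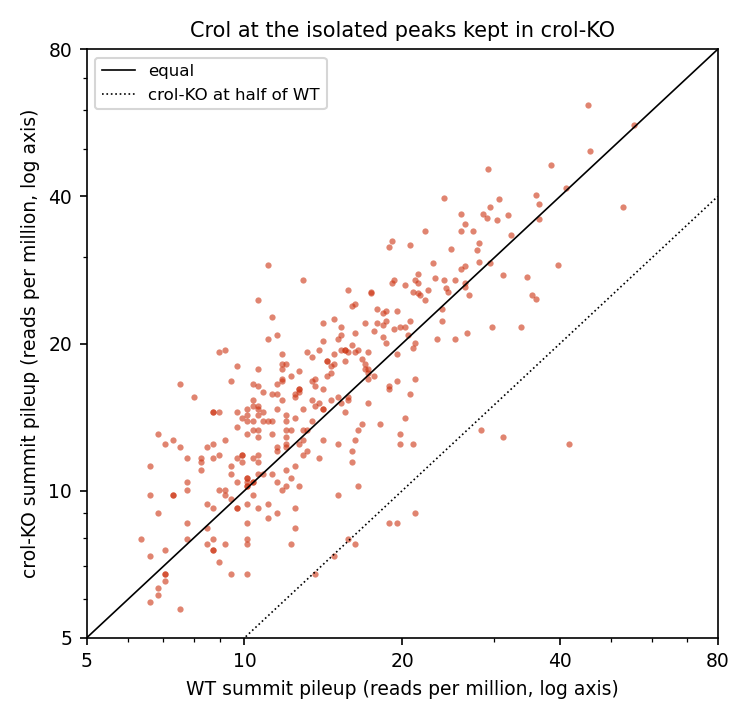
Summit pileup of the 332 isolated WT Crol peaks kept in crol-KO, in reads per M reads on log axes, with WT on the horizontal and crol-KO on the vertical axis. Each point is 1 peak, the solid line marks equal values and the dotted line a crol-KO value of 50% of WT. Most points lie near or above the solid line, and 9 lie below the dotted one.

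Cg was found at most isolated Crol peaks, and the difference from the other peaks depended on how overlap was counted. A WT Cg peak overlapped 293 of 399, or 73.4% (68.8 to 77.7), next to 75.8% of the whole WT Crol list, and the difference from the other peaks was -2.46 points (-7.08 to 1.73). A crol-KO Cg peak overlapped 300, or 75.2% (70.6 to 79.4), next to 76.1%, with a difference of -0.993 points (-5.54 to 3.08). Both of these intervals held 0. When a Cg peak anywhere within 1000 bp was counted, the difference was -8.05 points (-12.6 to -3.91) in WT and -5.95 (-10.5 to -1.93) in crol-KO, and both intervals lay below 0. This window does not compare like with like. Of the other peaks, 1374 had a WT Crol midpoint within 1000 bp, whose Cg peak can be counted, and isolated peaks have none by the rule. No direction is drawn from it. At the 271 isolated peaks with Cg in both genotypes, the median log2 ratio of the Cg pileup, crol-KO over WT, was 0.14, against 0.09 at 6792 other peaks.

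The presence of Cg and the retention of Crol went together at isolated peaks. Of the 293 with Cg in WT, 281 had a crol-KO Crol peak, or 95.9% (93.0 to 97.9). Of the 106 without it, 51 did, or 48.1% (38.3 to 58.0). The other WT Crol peaks showed much the same, with 94.1% (93.6 to 94.6) and 40.9% (38.9 to 42.9), so the link is one of the whole list. Peaks without Cg in WT were weaker, with a median fold enrichment of 2.77 against 3.86. Only 12 of the 67 absent peaks (17.9%) had Cg in WT, and 9 (13.4%) had it in crol-KO, next to 23.9% and 13.2% of the absent peaks among the others. Among the 77 isolated peaks with no Cg overlap in either genotype, 27 were kept, or 35.1% (24.5 to 46.8), against 25% (23.0 to 27.1) of the 1720 others of that kind, and the intervals overlapped.

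Of these 27 kept peaks, 8 also had an S2 Crol peak and 19 did not. The 3 strongest with no Cg even within 1000 bp were among those with one. The first, at 3R:23814698-23815191, had 83 reads in WT and 42 in crol-KO, which is 19.6 and 8.58 reads per M. Its log2 ratio was -1.19, with a counting interval from -1.76 to -0.64 that does not reach 0. The peak at X:16617451-16617916 had 68 and 56 reads, a log2 ratio of -0.49 (-1.02 to 0.05), and that at 3L:4468938-4469376 had 70 and 65 reads, a ratio of -0.31 (-0.82 to 0.20). In all 3 the crol-KO value was the lower one, beyond counting error in the first only. They were picked by their strength in WT, which favours a lower crol-KO value, so they do not stand for the 27. Others of the 27 went the other way, such as 2L:17327862-17328217 (log2 ratio 0.21) and 2R:20342485-20342938 (0.28).

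Isolated peaks were found in S2 cells less often than the rest. An S2 Crol peak overlapped 177 of 399, or 44.4% (39.4 to 49.4), where the whole WT list had 58.4%. The other WT Crol peaks had 59.0% (58.0 to 60.0), and the difference was -14.6 points (-19.5 to -9.61). It shrank to -5.61 points (-10.3 to -0.68) with an overlap of 50% of both peaks. At the same fold enrichment it was -15.3 points (-19.9 to -10.6), and at the same width -12.2 (-17.1 to -7.33). No S2 peak lay within 1000 bp of 216 isolated peaks, or 54.1% (49.1 to 59.1), next to 35.7% of all WT Crol peaks. That window can take in the S2 peak of a close WT Crol neighbour, which isolated peaks lack by the rule. The difference was present in each class of strength, where isolated peaks had S2 shares of 31%, 29%, 48% and 69.7% from the weakest to the strongest and the other peaks 44.8%, 54.7%, 63.0% and 75.3%, though in the strongest class the interval of isolated peaks (59.6 to 78.5) held the value of the others.

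Beyond 5000 bp the share with an S2 peak fell with distance, and the crol-KO share did not. Among WT Crol peaks whose nearest midpoint was 5000 to 10000 bp away, 62.3% (60.0 to 64.5) had an S2 overlap, and from 10000 to 20000 bp 56.9% (53.6 to 60.1). Isolated peaks at 20000 to 30000 bp had 48.7% (41.9 to 55.4), and those beyond had 38.9% (31.6 to 46.5). Below 5000 bp the S2 share rose with distance instead. It was 52.2% (49.5 to 54.9) within 1000 bp, 57.4% from 1000 to 2000 bp and 61.8% from 2000 to 5000 bp. For the classes beyond 5000 bp the crol-KO share was 82.8%, 80.5%, 83.5% and 82.9%, and it was 77.0% within 1000 bp. The WT Cg share beyond 5000 bp was 79.5%, 73.7%, 71.9% and 75.4%.

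**Figure D2:**
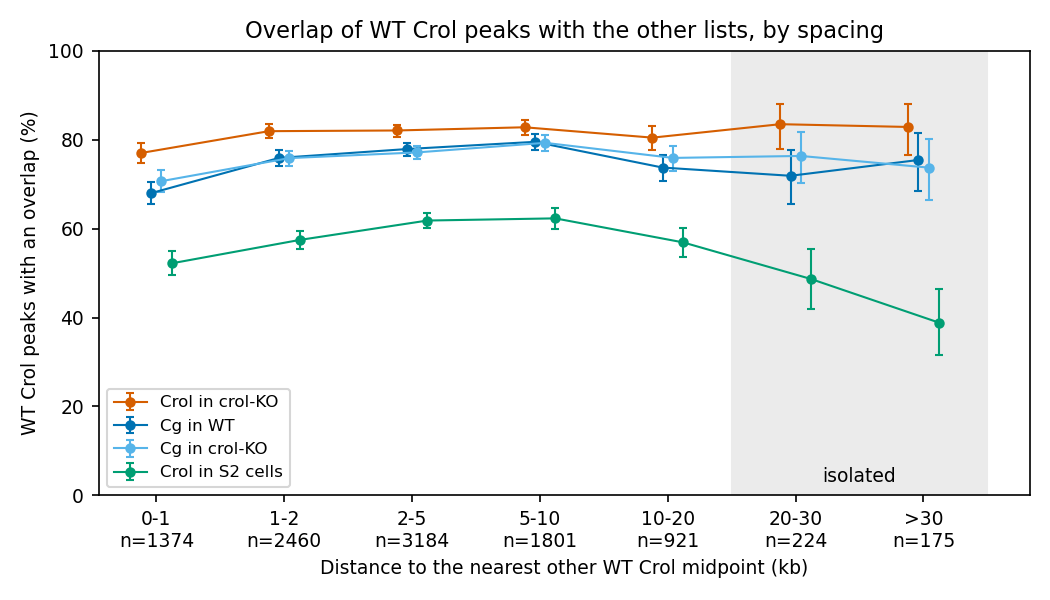
Share of WT Crol peaks, in percent, that overlap a peak of each of the 4 other lists, by distance to the nearest other WT Crol midpoint in kb, with 95% Clopper-Pearson intervals and the number of peaks per class. The shaded classes are the isolated peaks, where the S2 share falls to 48.7% and 38.9% while the crol-KO share stays at 83.5% and 82.9%.

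The S2 share was higher where more further S2 peaks lay nearby, at isolated peaks and at the others. With no further S2 peak within 20000 bp, 79 of 232 isolated peaks had an S2 overlap, or 34.1% (28.0 to 40.5), against 22.4% (19.5 to 25.4) of 809 other WT Crol peaks. With 1 further S2 peak the shares were 53.9% (41 of 76) and 40.3%, with 2 they were 57.8% (26 of 45) and 48.6%, and with 3 or more they were 67.4% (31 of 46) and 68.1%. The difference over these classes, chosen after the data were seen, was 10.1 points (5.07 to 15.2) in the opposite direction to the plain one. It does not compare like with like, because the classes come from the S2 list that is also the outcome. The other peaks have a WT Crol neighbour within 20000 bp by the rule, so those with no further S2 peak are ones whose neighbours were not called in S2 cells either, and isolated peaks have no such neighbour. It is given as a description and sets no direction. Most isolated peaks (232 of 399) fell in the first class and most other peaks (6723 of 9740) in the last.

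**Figure D3:**
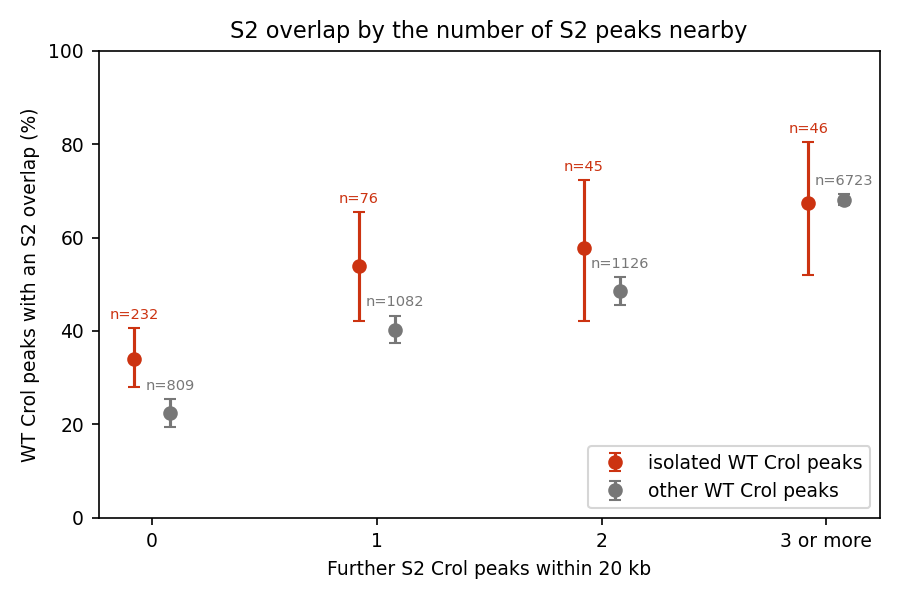
Share of WT Crol peaks, in percent, with an overlapping S2 Crol peak, by the number of further S2 Crol peaks within 20 kb, for isolated (red) and other (grey) peaks, with 95% Clopper-Pearson intervals and the number of peaks per class. With 0 further peaks isolated peaks lie higher (34.1% against 22.4%) and the intervals are separate. The intervals overlap with 1 (53.9% against 40.3%), with 2 and with 3 or more.

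The combination of lists at each isolated peak shows the same contrast. All 4 other lists had a peak at 152 of them, or 38.1% (33.3 to 43.1), next to 49.2% of the whole WT list, a difference from the others of -11.6 points (-16.3 to -6.64). The 3 lists from larvae without S2 accounted for 115, or 28.8% (24.4 to 33.5), against 18.6% (17.8 to 19.3) of the others. No other list had a peak at 45, or 11.3% (8.35 to 14.8), next to 10.6%. The crol-KO Crol list alone was found at 19 and the remaining combinations at 15 or fewer each. The peaks in all lists were the strongest, with a median fold enrichment of 4.43, those without S2 alone had 3.50, and those in no other list had 2.68.

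**Figure D4:**
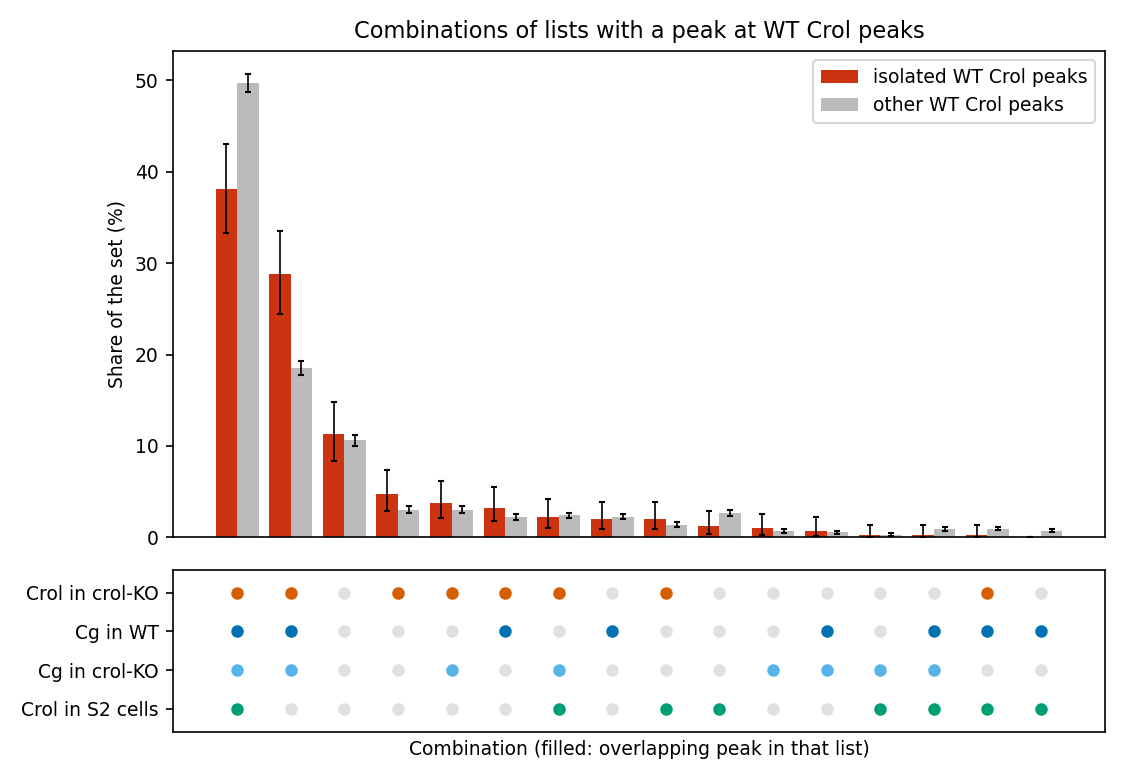
Share of isolated (red) and other (grey) WT Crol peaks, in percent, for each combination of the 4 other lists that overlap them, with 95% Clopper-Pearson intervals. Filled dots under a bar name the lists with a peak. Isolated peaks are less often in all 4 lists (38.1% against 49.7%) and more often in the 3 lists from larvae without S2 (28.8% against 18.6%).

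An isolated peak with an S2 partner was nearly always kept in crol-KO, in 170 of 177 cases or 96.0% (92.0 to 98.4), while without one 162 of 222 were kept, or 73.0% (66.6 to 78.7). The other WT Crol peaks had 92.3% (91.6 to 93.0) and 65.5% (64.0 to 67.0). Peaks with an S2 partner were also the stronger ones, with a median fold enrichment of 4.27 against 3.16.

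The strongest isolated peak of all had no S2 partner. At 3L:18432763-18433491 it had 155 reads and a fold enrichment of 9.46, which placed it at rank 98 of the WT Crol list. Crol in crol-KO had 189 reads there, and Cg had 110 reads in WT and 128 in crol-KO. Another lay on the same arm, at 3L:18297311-18298085, with 125 reads in WT, 143 in crol-KO and no S2 peak, and Cg had 86 and 107 reads there. The second strongest, X:289690-290262, had 137 and 163 reads for Crol in WT and crol-KO but weaker Cg, with 57 and 51 reads, and again no S2 peak. Per M reads, Crol had 36.5 in WT and 38.6 in crol-KO at the first of these, 29.4 and 29.2 at the next and 32.3 and 33.3 at the last, and the counting interval of each ratio held equal values.

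Strong isolated peaks shared by all lists came in different shapes. The peak at 2L:1006364-1008153 was the second widest of the isolated peaks, with 1790 bp, and had 105 reads in WT and 153 in crol-KO. It overlapped narrower peaks in the other lists, and the crol-KO Cg partner lay in its right part, from 1007555 to 1008295, while the WT Cg partner lay on its left, from 1006414 to 1006960. The peak at 3R:15394362-15395140 had 194 and 242 reads for Crol in WT and crol-KO, and only 48 and 51 for Cg. The peak at 2L:21899031-21899929 had the highest pileup of the isolated peaks, 235 reads in WT, with 274 in crol-KO and 358 in S2 cells. Cg had 173 reads there in WT and 254 in crol-KO. The widest isolated peak, 2L:12482771-12484698 with 1928 bp, was also in all lists, with 130 reads in WT and 193 in crol-KO.

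Most stretches around isolated peaks were poor in Crol and Cg peaks in the other lists too, though not empty. Counting peaks with a midpoint within 20000 bp that did not overlap the isolated peak, 125 isolated peaks (31.3%, 26.8 to 36.1) had a further crol-KO Crol peak, 87 (21.8%) a WT Cg peak, 118 (29.6%) a crol-KO Cg peak and 167 (41.9%, 37.0 to 46.9) an S2 peak. The mean number per isolated peak was 0.426, 0.261, 0.383 and 0.885, where the other WT Crol peaks had 4.57, 4.20, 4.27 and 4.30. The rule favours this gap, because the lists share many sites with the WT Crol list. In that list the other peaks had a mean of 4.91 further peaks within 20000 bp, and isolated peaks had 0 by definition. Of the 4 other lists, S2 thus had the most peaks in the stretches where the WT Crol list had none. The S2 list also rested on the most reads, 5.77 M. At 164 isolated peaks (41.1%, 36.2 to 46.1) none of the 4 lists had a further peak. These had the lower S2 share, 33.5% (26.4 to 41.3) against 51.9% (45.3 to 58.5) of the 235 with a further peak. Their WT Cg share was 67.7% (59.9 to 74.8) against 77.4% (71.6 to 82.6), and their crol-KO Crol share 81.1% (74.3 to 86.8) against 84.7% (79.4 to 89.0), with overlapping intervals in both. Their crol-KO Cg share was 67.1% (59.3 to 74.2) against 80.9% (75.2 to 85.7), and these intervals did not overlap. The split into 164 and 235 peaks comes from the same 4 lists as these shares, so the shares are given as a description and set no direction.

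**Figure D5:**
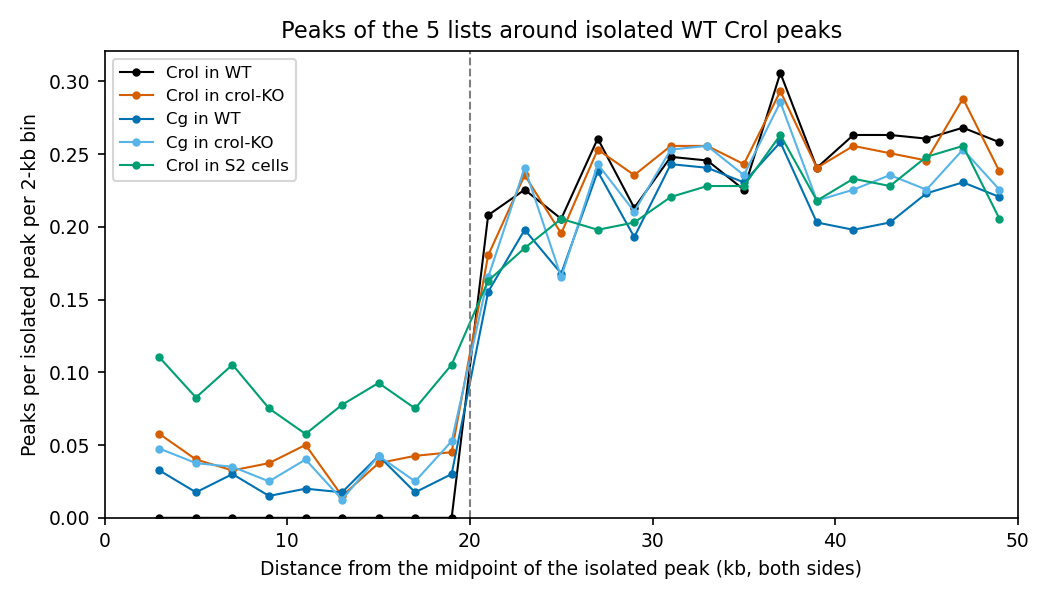
Mean number of peaks of each of the 5 lists per isolated WT Crol peak in 2-kb bins, by distance from its midpoint in kb with both sides added. The bin next to the midpoint is not drawn, and the dashed line marks 20 kb. Inside it the WT Crol list is at 0 by the rule, the other lists from larvae are low and S2 cells lie above them, and outside it the 5 lists come together.

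The further peaks in these stretches were weak ones. The 163 distinct crol-KO Crol peaks had a median fold enrichment of 2.68, at the percentile 22.5 of their list. The 338 S2 peaks stood at the percentile 27.3 of theirs, with a median fold enrichment of 3.33. Low percentiles can follow from the rule. It leaves out of these stretches the sites shared with the WT Crol list, which the whole lists hold in number. The values are given as a description.

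The partners of isolated peaks were often isolated in their own list. This was so for 219 of the 332 crol-KO Crol partners (66.0%, 60.6 to 71.0), for 219 of 293 in WT Cg (74.7%), for 196 of 300 in crol-KO Cg (65.3%) and for 79 of 177 in S2 cells (44.6%, 37.2 to 52.3). Among partners of the other WT Crol peaks the share ran from 1.38% in crol-KO Crol to 3.1% in S2 cells. The rule favours this gap, because the lists share many sites with the WT Crol list. The shares are given as a description and set no direction. Summits lay close together, with median distances of 39.5, 43, 39 and 30 bp in the same order of lists. Within 100 bp were 83.4%, 84.0%, 79.7% and 85.9% of them, against 78.3%, 77.7%, 75.7% and 72.5% at the other WT Crol peaks. Width limits how far apart 2 summits can lie, and partners of isolated peaks were narrower in each list. In S2 cells their median width was 631 bp against 765.5 bp, and in crol-KO Crol 571.5 bp against 607 bp. No direction is drawn from the summit distances.

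Isolated peaks occurred on all arms at rates whose intervals overlapped. They made up 3.95% of Crol peaks on X (73), 4.56% on 2L (82), 3.17% on 2R (63), 3.79% on 3L (81), 4.16% on 3R (95) and 5 of 87 on the small arm 4 (5.75%, 1.89 to 12.9). The share kept in crol-KO ran from 77.8% on 3L to 87.4% on 3R over the 5 large arms, and the intervals of all pairs of arms overlapped. The S2 share ran from 32.9% (22.3 to 44.9) on X to 61.9% (48.8 to 73.9) on 2R, which was 1 of 15 pairs of arms with separate intervals. The other WT Crol peaks had 60.0% on X and 61.1% on 2R, so the isolated peaks of 2R had about the S2 share of their neighbours and those of X did not. The WT Cg share was 87.3% (76.5 to 94.4) on 2R and 64.2% (52.8 to 74.6) on 3L, the only pair of 15 that stood apart for Cg in WT, and none did for Cg in crol-KO.

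Isolated peaks were most frequent near the centromeres. The 5 large arms were each divided into 10 equal parts of the stretch covered by peaks, and the parts nearest the centromere together held 609 WT Crol peaks, of which 63 or 10.3% (8.04 to 13.0) were isolated. The other parts had between 2.11% and 4.86%. The parts nearest the centromere were also sparse, with 51.2 WT Crol peaks per Mb, against 80.3 to 99.7 elsewhere. Their isolated peaks had an S2 overlap in 37 of 63 cases, or 58.7% (45.6 to 71.0). In the other parts it was 41.1% (35.7 to 46.6) of 331, and the intervals overlapped. These S2 shares pool the 5 large arms and were not split by arm. The crol-KO share was 82.5% against 83.1%.

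The peaks farthest from any other lay at such ends. The last WT Crol peak of 3L, 3L:24530321-24530652, was 508890 bp from its neighbour, and had only 31 reads and a fold enrichment of 2.06, yet it overlapped peaks of all 4 other lists, with 48 reads for Crol in crol-KO, 36 and 27 for Cg and 41 in S2 cells. Its neighbour 3L:24021391-24021803 was 289952 bp from the next peak on its other side, with 57 reads in WT and 82 in crol-KO, and was in all lists too. At 2L:22690851-22691269 the nearest midpoint was 183442 bp away. Crol had 45 reads there in both genotypes, Cg 41 and 37, and Crol in S2 cells 240. By fold enrichment it ranked 3590 of 10139 in the WT Crol list (3.96) and 2803 of 9593 in the S2 list (6.37).

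On the remaining arms the most distant peaks had fewer partners. The one on 3R, 3R:18724701-18725190, lay 105044 bp from the nearest midpoint and had 64 reads in WT, 61 in crol-KO and Cg in both genotypes but no S2 peak. That on 2R, 2R:1384042-1384410, at 79915 bp, had 44 and 51 reads for Crol, a WT Cg overlap and no S2 peak. That on X, X:21363887-21364186, at 72970 bp, had 32 reads over the minimum width of 300 bp and was in no other list. That on 4, 4:296951-297250, at 31657 bp, also had 300 bp, with 33 reads in WT and 49 in crol-KO, and shared a Cg peak in crol-KO only.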

How the data were processed

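Of the 34 ChIP-seq samples, 10 were used, as 5 peak lists with 2 samples each. Left out were 24, namely input libraries, those for H3K27me3, E(z) and Ph, and Crol libraries of an earlier set or another antibody. Per the study's methods, the authors trimmed reads with Trim Galore 0.6.5, aligned them to dm3 with Bowtie2 2.3.5, removed PCR duplicates with SAMtools 1.13, pooled replicates and called narrow peaks with MACS2 2.2.5 at a q-value of 0.05, extending reads to 300 bp. The deposited lists give each peak's start, end and summit offset, the authors' score (10 times the −log10 q-value), the authors' fold enrichment, and at the summit both −log10 q-value and −log10 p-value as deposited.

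Pileup and background were solved from the fold enrichment, (pileup + 1) over (background + 1), and the Poisson p-value, which gave whole-number pileups for at least 97.6% of peaks of every list. Read numbers came from the lowest background, a 300 bp extension and a 120 Mb genome. A peak counted as shared at an overlap of at least 1 bp. A peak of another list with a midpoint within 20000 bp that did not overlap the member counted as a further peak. Stratified differences are Mantel-Haenszel differences over 10 classes of fold enrichment or width, or over the number of further S2 peaks. The interval of a single pileup ratio comes from the read counts. Python 3.11.15, numpy 2.4.6, pandas 2.3.3, scipy 1.17.1 and matplotlib 3.10.9 were used, and the functions were tested on simulated data.

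Named peaks were the strongest isolated peaks, the strongest with no crol-KO peak, with no S2 peak, with no Cg or in all 4 lists, the most distant overall and per arm, the widest, and those next to the threshold. The members, this rule and the comparisons were chosen with earlier results of these data known. Alternatives changed the distance, the point that stands for a peak, the overlap and the threshold on q.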

Additional observations from a re-analysis of the deposited data

Results flagged for a closer look

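Outside the arms analysed, the WT Crol list held 39 peaks on the heterochromatic sequences of dm3, and 19 of them met the same distance of more than 20000 bp. They are given here because no comparison of the report used these sequences. Of these 19, 18 overlapped a crol-KO Crol peak, 17 a WT Cg peak, 19 a crol-KO Cg peak and 14 an S2 peak, and 12 were in all 4 other lists. Over all WT Crol peaks of the arms these shares were 81.4%, 75.8%, 76.1%, 58.4% and 49.2%. With 19 peaks no difference is drawn from this. Their median fold enrichment was 3.53, and 1 of them was the only peak of its sequence.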

How the results depend on the processing

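Over 11 results, 102 alternatives were computed, of which 85 left the value near the main one: a share or difference inside its interval, a width within the SD over peaks. With more than 15000 bp the number of isolated peaks was 709 and with more than 30000 bp it was 175, where the S2 share was 38.9% and its difference from the other peaks -19.9 points. An overlap of 50% of both peaks gave an S2 share of 36.8%, a share in all 4 lists of 31.1%, and differences of 7.51 points (3.20 to 11.3) for crol-KO Crol, 4.69 (-0.02 to 9.01) for crol-KO Cg and -5.61 (-10.3 to -0.68) for S2. Counting peaks within 1000 bp gave differences of -2.34 points for crol-KO Crol, -8.05 for WT Cg and -5.95 for crol-KO Cg. For the other peaks this window can take in the peak of a close WT Crol neighbour, which isolated peaks lack by the rule. With a −log10 q of at least 5 in the second list the shares were 78.2% for crol-KO Crol, 67.7% for WT Cg and 70.2% for crol-KO Cg. Over classes of width, added after the data were seen, the WT Cg difference was 2.24 points. Over classes of the number of further S2 peaks, also added afterwards, the S2 difference was 10.1 points, the reverse of the plain one, but these classes come from the same S2 list as the outcome, and no direction is drawn from it. Leaving out the part of each arm nearest the centromere, a further addition, moved no share or difference outside its interval, and the S2 difference was then -17.5 points.

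No paired analysis was possible because replicates were pooled before peak calling, and leaving out a replicate could not be done for the same reason. Depth limits what is absent: a peak missing from a list was not called at 3.42 to 5.77 M reads, which does not show that the protein was not there. The neighbourhood of 24 isolated peaks includes a skipped peak number, and no gene was assigned to any peak.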
